A study of Mus musculus with 28 samples.

Results

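Osr2 and Adamts1 are 2 of the 30210 features counted in RNA co-precipitated with PKR, a kinase, from mouse embryonic fibroblasts (MEFs), and they were chosen by name because their counts were lower after palmitate. The lower counts under palmitate are therefore described here and not tested. The fibroblasts had been reconstituted with 1 of 2 forms of PKR. RM PKR carries a mutation in each double-stranded RNA-binding motif, and WT PKR is wild type. Each cell type was given 0.1 mM palmitic acid or mock treatment, which gives 4 groups, named RM palmitate, RM mock, WT palmitate and WT mock. Datasets A and B hold 3 libraries per group, called biological replicates by the submitters, while in dataset C each group has 1 library. A mark, 2hr, stands in the column names of dataset B, and the labels do not explain it. The question of the series is which RNAs come down more with WT PKR once palmitate is given.

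PKR is a kinase that is switched on by double-stranded RNA and slows translation by phosphorylating an initiation factor. Palmitic acid is a saturated fatty acid that stresses fibroblasts and other cells. Osr2 encodes a zinc finger transcription factor of the odd-skipped family, which patterns mesenchyme and is needed for growth of the palatal shelves in the mouse. Adamts1 encodes a secreted metalloprotease with thrombospondin repeats, which cuts the large matrix proteoglycans versican and aggrecan.

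Osr2 (ENSMUSG00000022330) lies on the plus strand of chr15:35225853-35233059 and Adamts1 (ENSMUSG00000022893) on the minus strand of chr16:85794072-85803358, both on mm9 and counted from 1. The files give an exonic length of 1723 bases for Osr2 and 5123 bases for Adamts1. No other feature of the files overlapped either gene, so reads of an antisense or overlapping feature do not enter their counts through the annotation. The stretch shown next is the zinc-binding motif of the Adamts1 protease domain, which marks it as a metalloprotease of this family, residues 402 to 412 of 968, with the codons of the 3 histidines in capitals.

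Adamts1: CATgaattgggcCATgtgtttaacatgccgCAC

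Over the whole transcripts, 4 of 3661 words of 25 bases from the 5 Osr2 transcripts (0.109%) were also found in transcripts of 105 other genes. The most found in any single gene was 3, in Vmn2r73. For the 3 Adamts1 transcripts, 0 of 5278 such words occurred in another gene. Adamts1 thus shares no word of that length with another ADAMTS protease, and Osr2 shares at most 3 with any other gene, Osr1 included. The sequence and the words are from GENCODE M21 transcripts on GRCm38, used for their letters only.

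The libraries held 254762 to 8036622 counts in dataset A, 2204502 to 7122087 in dataset B and 7462653 to 11658726 in dataset C. Levels are given as CPM, counts relative to the library total after TMM scaling. TMM rescales the library totals of a dataset on the assumption that most features do not differ between its libraries. Datasets A and B were scaled separately, so levels are compared within a dataset. The fewest counts were in replicate 2 of RM palmitate in dataset A, which held 2 counts of Osr2 and 5 of Adamts1. TMM factors were 0.82 and 0.637 in replicates 2 and 3 of RM palmitate in dataset B. Fibroblast markers were abundant in every library, with 9 of 10 at a mean of 1 CPM or more, and their summed level was 8094 to 11901 CPM in dataset A and 14411 to 22511 CPM in dataset B. Macrophage and lymphocyte markers summed to at most 2.21 CPM in A and 7.58 CPM in B, with Adgre1, Cd3e and Tyrobp among those at 0. Epithelial markers summed to at most 1.24 CPM in A and 14.05 CPM in B, and endothelial markers to at most 6.90 and 8.44 CPM with Emcn and Tie1 at 0. No input RNA and no control precipitate is among the samples, so a lower level can mean less of the RNA in the cells or less of it held with PKR, and these cannot be told apart. In such bulk samples fewer cells with an RNA and less RNA per cell cannot be told apart either.

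Osr2 was lower with palmitate than with mock in both datasets and with both forms of PKR. In dataset A it had 8.83, 6.90 and 8.01 CPM in RM palmitate replicates 1, 2 and 3, against 20.0, 23.5 and 26.1 CPM in RM mock. It had 9.33, 6.75 and 7.89 CPM in WT palmitate, against 28.4, 22.9 and 23.95 CPM in WT mock. All 6 palmitate libraries lay below all 6 mock libraries of dataset A. The level of the shallow RM palmitate replicate 2 rests on its 2 counts.

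In dataset B the counts of Osr2 per library were few. RM palmitate libraries gave 3.44, 3.88 and 5.83 CPM from 12, 7 and 10 counts, against 7.18, 6.96 and 9.97 CPM from 58, 51 and 39 counts in RM mock. WT palmitate libraries gave 2.56, 3.39 and 3.84 CPM from 16, 13 and 23 counts, against 9.504, 7.31 and 8.19 CPM from 69, 48 and 49 counts in WT mock. Again no palmitate library reached the level of a mock library. RM palmitate replicate 3, which stood apart in scaling, came closest.

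As log2 fold changes of palmitate over mock, Osr2 gave -1.47 ± 0.21 with RM and -1.63 ± 0.20 with WT in dataset A (SE, n = 3 against 3 libraries). In dataset B it gave -0.90 ± 0.29 with RM and -1.36 ± 0.25 with WT. These are levels 2.78-fold and 3.10-fold lower in dataset A, and 1.87-fold and 2.56-fold lower in dataset B. Averaged over genotypes and datasets the change was -1.33 ± 0.11, or 2.51-fold lower. Among all features tested the median change of that average was -0.01.

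Adamts1 was also lower with palmitate in each pair of groups. In dataset A it had 21.9, 17.2 and 24.2 CPM in RM palmitate, against 39.5, 45.6 and 48.2 CPM in RM mock. It had 21.6, 16.3 and 18.9 CPM in WT palmitate, against 51.9, 39.3 and 39.5 CPM in WT mock. The 2 genotypes overlapped under each treatment, and palmitate and mock did not. In dataset B it had 26.7, 29.4 and 20.4 CPM in RM palmitate, against 52.0, 44.3 and 46.5 CPM in RM mock, and 13.1, 16.1 and 16.4 CPM in WT palmitate, against 25.3, 29.8 and 34.3 CPM in WT mock. Here the genotypes stood apart as well, and the RM palmitate libraries overlapped the WT mock libraries.

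The log2 fold changes of Adamts1 were -0.99 ± 0.20 with RM and -1.20 ± 0.20 with WT in dataset A, and -0.90 ± 0.16 with RM and -0.97 ± 0.16 with WT in dataset B (SE, n = 3 against 3 libraries). The average over genotypes and datasets was -1.0 ± 0.09. Because Osr2 and Adamts1 were picked for this difference, that neither overlapped between palmitate and mock is a description. How many of all features lack such overlap is not given. For scale, edgeR's quasi-likelihood test, with p-values adjusted over all features tested by the method of Benjamini and Hochberg and a threshold of 0.05, called 0.159% of features lower with palmitate in dataset A with RM and 0.0971% with WT. The same test called 2.45% lower in dataset B with RM and 6.12% with WT.

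**Figure D1:**
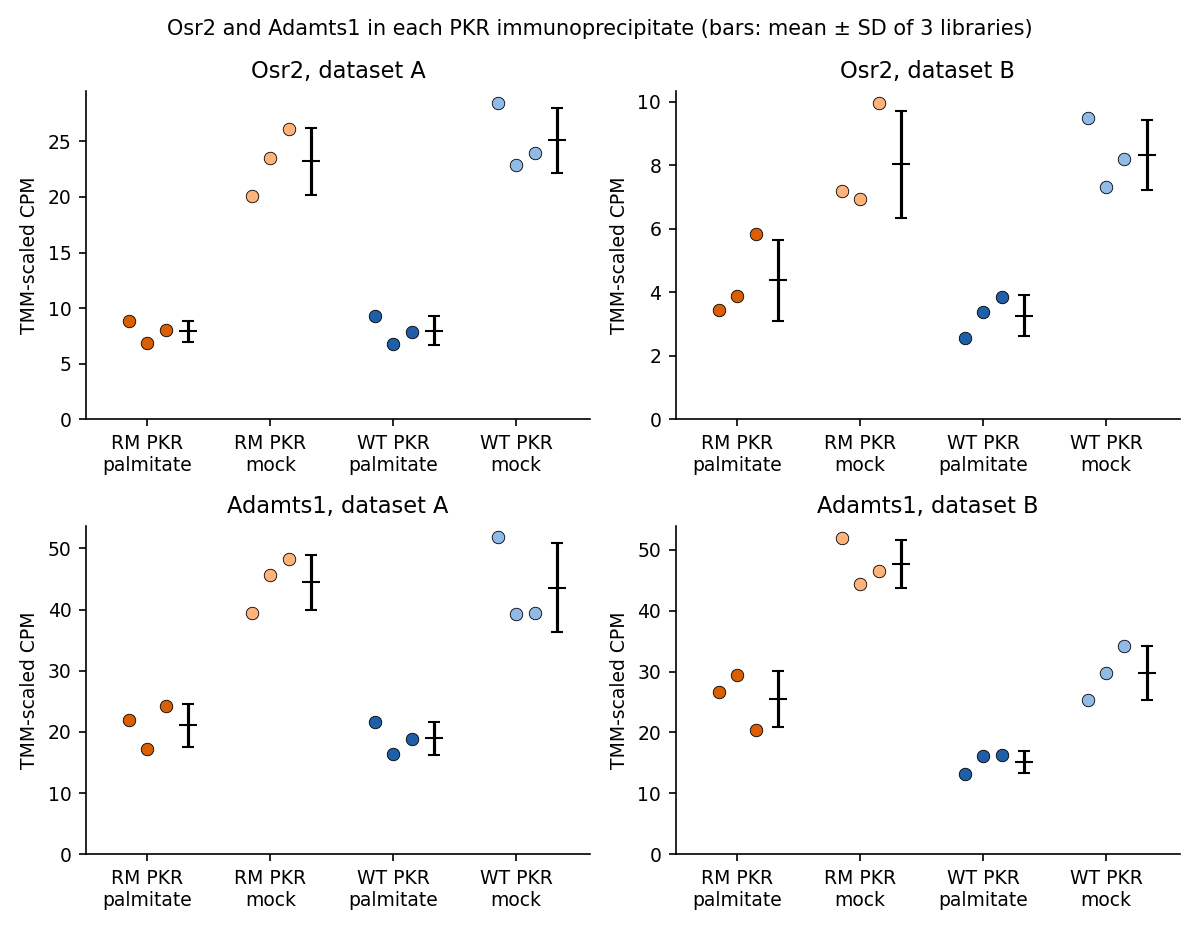
TMM-scaled CPM (vertical axes, each from 0) of Osr2 and Adamts1 in each library of datasets A and B, with points for replicates 1 to 3 of a group from left to right and bars for mean ± SD of 3 libraries. Palmitate libraries lie below mock libraries of the same genotype in every panel, and in dataset B alone the RM libraries of Adamts1 lie above the WT libraries of the same treatment.

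Leaving out in turn each library of the 2 groups compared reversed none of these 8 changes. Because palmitate and mock libraries did not overlap in any of these pairs, a reversal was hardly possible. The change of Osr2 ranged from -1.56 to -1.38 with RM and from -1.76 to -1.48 with WT in dataset A, and from -1.11 to -0.71 with RM and from -1.51 to -1.17 with WT in dataset B. The change of Adamts1 ranged from -1.06 to -0.92 with RM and from -1.29 to -1.002 with WT in dataset A, and from -0.99 to -0.77 with RM and from -1.07 to -0.84 with WT in dataset B. The smallest change in any of these fits, -0.71, was that of Osr2 with RM in dataset B, where the fewest counts stand behind the levels. Without the shallow RM palmitate replicate 2 of dataset A, the changes with RM were -1.43 for Osr2 and -0.92 for Adamts1. With RM palmitate replicate 1 as the only RM palmitate library of dataset B, the changes with RM were -1.18 for Osr2 and -0.83 for Adamts1.

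**Figure D2:**
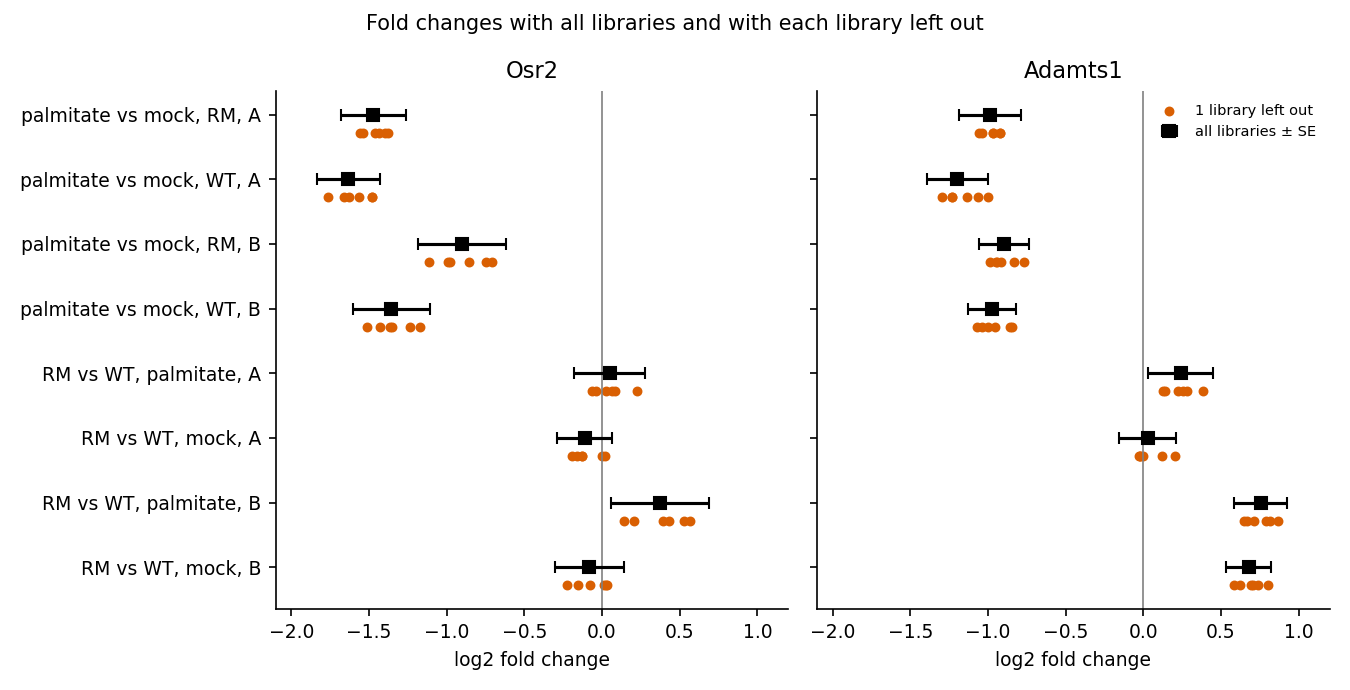
Log2 fold changes (horizontal axes) of Osr2 and Adamts1 in the 8 comparisons within datasets A and B, with black squares and bars for all libraries ± SE and orange points for fits that leave out 1 library each. Every point for palmitate against mock is below 0, at -0.71 or lower, and the points for RM against WT cross 0 for Osr2 in 3 of 4 comparisons and for Adamts1 in mock of dataset A.

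Whether the form of PKR changed the recovery of the pair was tested within each treatment. Osr2 did not differ past the threshold between RM and WT in any of the 4 comparisons. In palmitate it averaged 7.91 ± 0.970 CPM with RM and 7.99 ± 1.29 CPM with WT in dataset A, and 4.38 ± 1.27 CPM with RM and 3.26 ± 0.651 CPM with WT in dataset B (SD, n = 3 each). In mock it averaged 23.2 ± 3.03 CPM with RM and 25.1 ± 2.94 CPM with WT in dataset A, and 8.04 ± 1.68 CPM with RM and 8.33 ± 1.11 CPM with WT in dataset B. The log2 fold changes of RM over WT in palmitate were 0.05 in dataset A (95% interval -0.43 to 0.53, adjusted p = 0.943, edgeR) and 0.37 in dataset B (-0.30 to 1.05, adjusted p = 0.543). In mock they were -0.11 in dataset A (-0.48 to 0.26, adjusted p = 0.782) and -0.08 in dataset B (-0.55 to 0.39, adjusted p = 0.841). In both datasets the 2 genotypes overlapped under each treatment.

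Adamts1 differed between the genotypes in dataset B. Its level was 25.5 ± 4.61 CPM in RM palmitate and 15.2 ± 1.82 CPM in WT palmitate, and 47.6 ± 3.96 CPM in RM mock and 29.8 ± 4.47 CPM in WT mock (SD, n = 3 each). No RM library overlapped a WT library of the same treatment, and the share of all features without such overlap is not given. Adamts1 was 1.69-fold higher with RM than with WT in palmitate (log2 fold change 0.76 ± 0.17, 95% interval 0.40 to 1.12, adjusted p = 0.0183, edgeR), where 4.2% of all features tested were called higher with RM. It was 1.60-fold higher with RM in mock (0.68 ± 0.15, 95% interval 0.37 to 0.99, adjusted p = 0.00618), where 7.88% of features were called higher. Scaling by total counts alone ended both calls, with an adjusted p of 0.0554 in mock and 0.214 in palmitate, and the call in palmitate also ended without WT palmitate replicate 1 (adjusted p = 0.104), WT palmitate replicate 2 (adjusted p = 0.0531) or RM palmitate replicate 2 (adjusted p = 0.0765) and in the fits of only the 2 groups (adjusted p = 0.0565) or with RM palmitate replicate 1 alone (adjusted p = 0.150). The call in mock held in all 6 fits that left out 1 library, with adjusted p of 0.00379 to 0.0278.

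In dataset A the level of Adamts1 was 21.1 ± 3.52 CPM in RM palmitate and 18.9 ± 2.64 CPM in WT palmitate, and 44.4 ± 4.47 CPM in RM mock and 43.6 ± 7.21 CPM in WT mock. RM over WT gave 0.24 in palmitate (95% interval -0.19 to 0.67, adjusted p = 0.585) and 0.03 in mock (-0.36 to 0.41, adjusted p = 0.959), neither past the threshold. In these comparisons 3.43% of features were called in palmitate and 3.74% in mock. Averaged over treatments, RM over WT in dataset B minus RM over WT in dataset A was 0.57 ± 0.17 for Adamts1 (95% interval 0.22 to 0.92, adjusted p = 0.0368), where 7.88% of features were called. That call was lost in 12 of 24 fits that left out 1 library, over which the adjusted p ranged from 0.0214 to 0.0846, and under total counts the difference was 0.081 (adjusted p = 0.834). This comparison was added after the genotype differences had been seen. Among the 4 groups of dataset A the order of Adamts1 levels was thus RM mock, WT mock, RM palmitate and WT palmitate, with overlap inside the mock pair and inside the palmitate pair. In dataset B the order of levels was the same, and the overlapping neighbours were WT mock and RM palmitate. For Osr2 the order was WT mock, RM mock, WT palmitate and RM palmitate in dataset A and WT mock, RM mock, RM palmitate and WT palmitate in dataset B, with overlap inside each treatment and none between treatments.

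The palmitate change itself did not differ past the threshold between the genotypes. The change with RM minus that with WT was 0.16 for Osr2 (95% interval -0.45 to 0.77, adjusted p = 0.9998) and 0.21 for Adamts1 (-0.37 to 0.79, adjusted p = 0.996) in dataset A, and 0.46 for Osr2 (-0.36 to 1.27, adjusted p = 0.611) and 0.08 for Adamts1 (-0.39 to 0.55, adjusted p = 0.912) in dataset B. In this comparison edgeR called 0.0% of features in either dataset, and 469 features in A and 2011 in B had an unadjusted p under 0.05. DESeq2 called 0 features in A and 350 in B. Nor did the palmitate change of the pair differ past the threshold between the datasets, where 2.72% of features were called. The change in dataset B minus that in dataset A was 0.40 for Osr2 (95% interval -0.07 to 0.87, adjusted p = 0.376) and 0.13 for Adamts1 (-0.22 to 0.48, adjusted p = 0.738).

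The balance between the pair, which does not depend on how libraries are scaled, also differed between groups. Per kilobase of exonic length, the ratio of the Osr2 level to the Adamts1 level within a library was 1.13 ± 0.121 in RM palmitate and 1.55 ± 0.0534 in RM mock of dataset A (SD, n = 3 each). It was 1.25 ± 0.0285 in WT palmitate and 1.72 ± 0.0873 in WT mock. The ratio in each of the 6 palmitate libraries, at most 1.28, was under that in each of the 6 mock libraries, at least 1.51. Of these, the ratio of 1.19 in RM palmitate replicate 2 rests on 2 counts of Osr2 and 5 of Adamts1, so its place is uncertain. How many other pairs of features lack such overlap is not given. In dataset B the ratios were 0.542 ± 0.266 in RM palmitate and 0.505 ± 0.118 in RM mock, and 0.634 ± 0.0595 in WT palmitate and 0.851 ± 0.229 in WT mock. There the RM groups overlapped and the WT groups did not. Per kilobase, Osr2 exceeded Adamts1 in 11 of 12 libraries of dataset A and in 1 of 12 libraries of dataset B. What sets the datasets apart in this ratio was not tested.

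Dataset C, with 1 library per group, gave a lower Osr2 with palmitate and a smaller difference for Adamts1. In the dataset C tables the t columns were read as palmitate and the c columns as mock, after the header words for treated and control. Levels in dataset C are CPM by total counts, their intervals cover counting error only, and a difference has no replicate check. Osr2 had 101 counts, or 8.66 CPM (95% Poisson interval 7.06 to 10.5), in RM palmitate and 219 counts, or 21.7 CPM (18.9 to 24.7), in RM mock. It had 21 counts, or 2.71 CPM (1.68 to 4.15), in WT palmitate and 61 counts, or 8.17 CPM (6.25 to 10.5), in WT mock. The ratio of palmitate to mock was 0.400 with RM (0.313 to 0.508) and 0.332 with WT (0.192 to 0.553), past 2-fold lower in both genotypes. With the library totals in the headers the ratio with RM was 0.533, short of 2-fold. Among all features 4.27% were 2-fold or more lower with palmitate with RM and 1.88% with WT.

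Adamts1 had 531 counts, or 45.5 CPM (95% Poisson interval 41.8 to 49.6), in RM palmitate and 661 counts, or 65.4 CPM (60.5 to 70.6), in RM mock of dataset C. It had 60 counts, or 7.75 CPM (5.92 to 9.98), in WT palmitate and 65 counts, or 8.71 CPM (6.72 to 11.1), in WT mock. The ratio of palmitate to mock was 0.697 with RM (0.620 to 0.782) and 0.890 with WT (0.616 to 1.28), and neither reached 2-fold. The interval with WT included 1. After TMM scaling the fold of palmitate over mock in datasets A and B was 0.505 and 0.538 with RM, and 0.436 and 0.509 with WT. For each genotype the counting interval of dataset C lay above these values, but that interval is by total counts and not after TMM scaling. By total counts the median ratio of palmitate to mock over all features of dataset C was 1.13 with RM and 1.21 with WT. The 2 sets of values are therefore not on 1 scale, and whether dataset C differs from A and B was not tested.

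Both genes were higher with RM than with WT in dataset C, as most features were. The ratio of RM to WT was 3.19 for Osr2 in palmitate and 2.65 in mock, and 5.88 for Adamts1 in palmitate and 7.51 in mock. The median ratio of all features compared was 4.85 in palmitate and 5.17 in mock, and 87.5% of features in palmitate and 89.6% in mock were 2-fold or more higher with RM. Relative to that median Osr2 was low and Adamts1 high, and TMM scaling of the 4 libraries put Osr2 below 1, at 0.703 in palmitate and 0.519 in mock, and Adamts1 above 1, at 1.29 and 1.47. Counts on the strand opposite to the gene were at most 2 in any library for either gene.

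**Figure D3:**
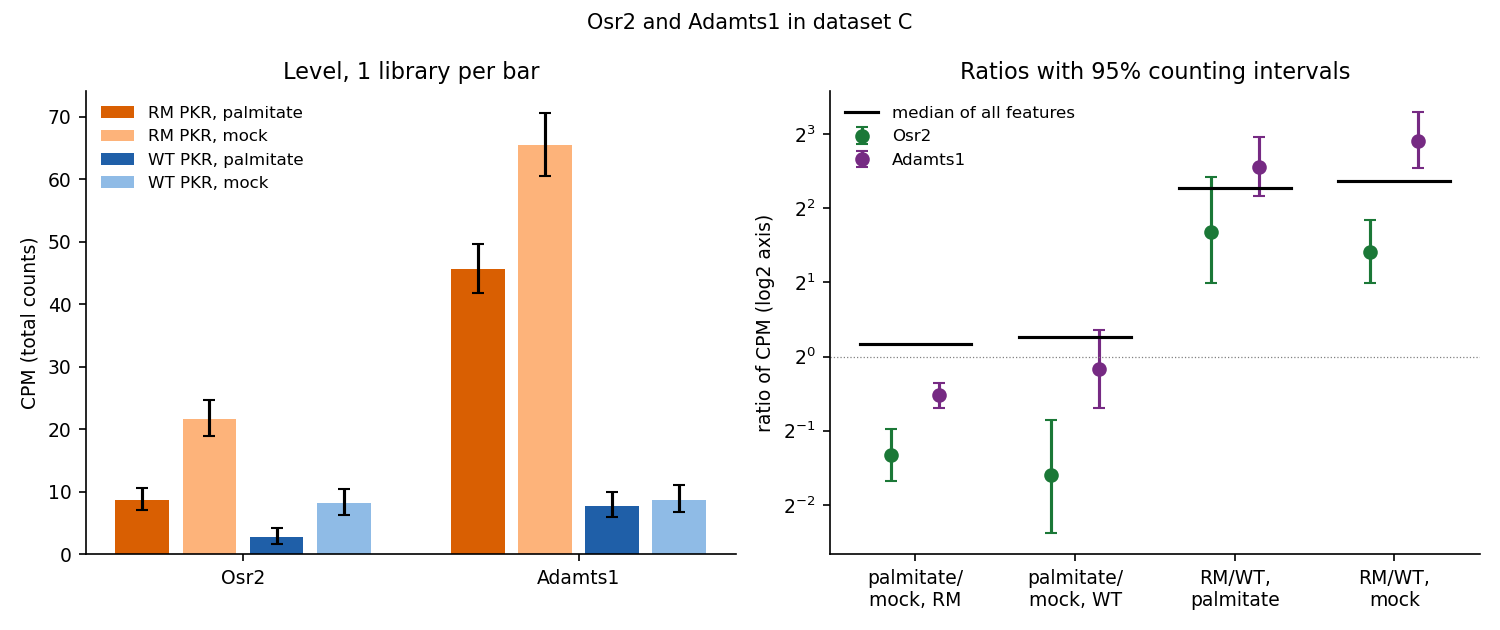
Left, CPM by total counts of Osr2 and Adamts1 in the 4 libraries of dataset C, 1 library per bar, with 95% Poisson intervals. Right, ratios of CPM on a log2 axis with 95% counting intervals and, as black lines, the median ratio of all features, which is 4.85 in palmitate and 5.17 in mock for RM against WT.

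Adamts5, which like Adamts1 cuts aggrecan and versican, had the highest correlation with Adamts1 among features that averaged at least 5 CPM in both datasets, a limit that left out low-count proteases such as Adamts15. Its gene is the nearest tested neighbour of Adamts1, 55.1 kb away on the same strand. Adamts1 was picked for its lower level with palmitate, so a feature that correlates with it over these libraries tends to be lower too. Adamts5 fell with palmitate by 0.75 ± 0.09 on the log2 scale in the average over genotypes and datasets (adjusted p = 7.76e-07, edgeR). In dataset B it was lower with palmitate with RM (-0.63 ± 0.12, adjusted p = 0.00675, lost with RM palmitate replicate 1 alone at 0.0668) and with WT (-0.64 ± 0.11, adjusted p = 0.00178). In dataset A it had 26.2 ± 12.2 CPM in RM palmitate and 45.4 ± 5.70 CPM in RM mock, and 15.2 ± 0.609 CPM in WT palmitate and 33.8 ± 1.57 CPM in WT mock, and of these the WT pair passed the threshold (adjusted p = 0.0329), a call kept in 6 of 13 alternatives and lost without any 1 of the WT mock libraries or WT palmitate replicate 2 or 3 (adjusted p = 0.0576 to 0.223). In mock of dataset B Adamts5 was higher with RM than with WT, at 72.1 ± 4.15 CPM with RM and 49.3 ± 3.31 CPM with WT (adjusted p = 0.00449, lost under total counts at 0.0861). The other nearest tested neighbours were App, Gabpa and N6amt1 around Adamts1 and Stk3, Pop1, Vps13b and Cox6c around Osr2. Of these 7, the palmitate average was past the threshold for Pop1 alone, where 20.3% of all features were called. Pop1 was higher by 0.41 ± 0.10 (adjusted p = 0.00402, lost under total counts at 0.147).

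Of 18 other ADAMTS proteases, 12 were tested in the fit of both datasets. In the palmitate average 1 was called higher and 2 lower, where 20.3% of all features tested were called in either direction. Besides Adamts5, Adamts15, another protease that cuts aggrecan, fell by 2.04 ± 0.33 (adjusted p = 6.5e-05), with 0.930 ± 0.985 CPM in RM palmitate and 4.26 ± 0.769 CPM in RM mock, and 0.890 ± 0.901 CPM in WT palmitate and 4.22 ± 1.27 CPM in WT mock, of dataset A. Adamts10, which is linked to fibrillin fibres, rose by 0.65 ± 0.13 (adjusted p = 0.00119). It was also the 1 protease of the 12 whose palmitate change was called higher in dataset B than in dataset A, where 2.72% of features were called. That call was not kept with RM palmitate replicate 1 of dataset B alone. The median change of the 12 was 0.03, against -0.01 for all features tested. In dataset B with WT, 4 of 11 tested proteases rose with palmitate (Adamts10, Adamts6, Adamts9 and Adamts14, the last with an adjusted p of 0.0526 without WT palmitate replicate 3) and 1 fell (Adamts5), where 15.5% of features were called. With RM, 0 of 11 rose and 1 fell, where 7.53% were called. In dataset A 0 of 11 rose with either genotype, and 1 fell with WT and 0 with RM, where 0.0971% and 0.159% of features were called lower. The median change of the 11 was -0.16 with RM and -0.20 with WT in dataset A, against -0.04 and -0.03 for all features. In dataset B it was -0.08 with RM and 0.44 with WT, so the average over datasets joins unlike medians. Most of the measured proteases were thus not called lower with palmitate, though their medians in dataset A were below 0.

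With RM against WT in mock of dataset B, 8 of the 11 other proteases tested were called higher and 0 lower, where 14.1% of features were called in either direction. The 4 with the smallest p were Adamts9 (0.84 ± 0.11, adjusted p = 0.000239), Adamts6 (1.27 ± 0.20, adjusted p = 0.00126), Adamts14 (1.16 ± 0.19, adjusted p = 0.00139) and Adamts10 (1.63 ± 0.29, adjusted p = 0.00376). The median log2 fold change of the 11 was 0.55, against -0.02 for all features tested. In palmitate of dataset B 3 of 11 were called higher, Adamts5, Adamts9 and Adamts6, and 0 lower, where 7.81% of features were called. Each of these 3 calls was lost in 6 to 8 of 15 alternatives, among them the fits without WT palmitate replicate 1, WT palmitate replicate 2 or RM palmitate replicate 2, for Adamts5 and Adamts6 also without RM palmitate replicate 3 and for Adamts9 also without WT palmitate replicate 3. In dataset A, where 3.43% of features were called in palmitate and 3.74% in mock, 0 of 11 proteases were called higher and 1 lower in mock (Adamts2, -0.93 ± 0.19, adjusted p = 0.00545, lost without WT mock replicate 1 at 0.0728 or under total counts at 0.198), and 1 higher and 0 lower in palmitate (Adamts5, 0.94 ± 0.24, adjusted p = 0.0344). Without RM palmitate replicate 3 that change of Adamts5 was 0.41 (adjusted p = 0.441), and the call was also lost without WT palmitate replicate 2 (0.144) or 3 (0.061), with DESeq2 (0.0695) and in the fit of only the 2 groups (0.210).

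**Figure D4:**
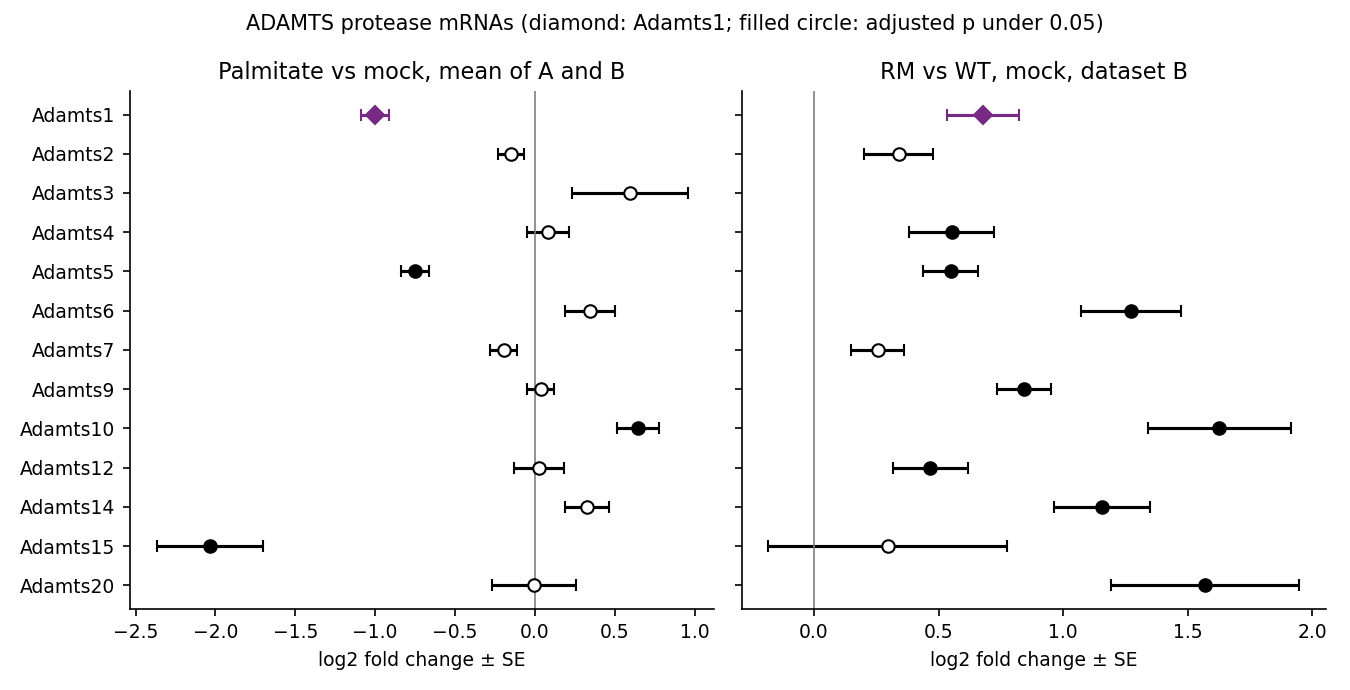
Log2 fold changes ± SE (horizontal axes) of Adamts1 (purple diamond) and the other tested ADAMTS proteases (circles, filled where the adjusted p was under 0.05), for palmitate against mock averaged over datasets A and B on the left and for RM against WT in mock of dataset B on the right. On the left Adamts1, Adamts5 and Adamts15 lie below 0, and on the right all points with a filled circle lie above 0.

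The ADAMTS-like proteins, which lack the protease domain, gave 0 calls in the palmitate average among 4 tested of 6, where 20.3% of all features were called. Of 13 known substrates and matrix partners of ADAMTS1, 8 were tested, and in the palmitate average 3 rose and 1 fell, against the same 20.3% of all features called. Their median change was 0.083, against -0.01 for all features. Sdc4, a cell surface proteoglycan, rose by 0.80 ± 0.08 (adjusted p = 6.78e-08), Has2, a hyaluronan synthase, by 0.55 ± 0.10 (adjusted p = 0.000321), and the aggrecan gene Acan by 0.32 ± 0.10 (adjusted p = 0.0203, lost under total counts at 0.341, without WT mock replicate 2 of dataset A at 0.0651 or without WT palmitate replicate 1 of dataset A at 0.0757), while Nid2, a basement membrane protein, fell by 0.42 ± 0.10 (adjusted p = 0.00548). Versican (Vcan) had 442 ± 122 CPM in RM palmitate and 664 ± 104 CPM in RM mock of dataset A and did not pass the threshold in any comparison. With RM against WT, Acan was called higher in both treatments of dataset A (1.34 ± 0.25 in palmitate, adjusted p = 0.00384, and 1.18 ± 0.25 in mock, adjusted p = 0.00908, lost without WT mock replicate 2 at 0.114) and in mock of dataset B (0.70 ± 0.13, adjusted p = 0.00263). Cd44, a hyaluronan receptor of the same list, was called lower with RM in dataset B, in palmitate (-0.41 ± 0.12, adjusted p = 0.0463) and in mock (-0.50 ± 0.12, adjusted p = 0.0109). The call of Cd44 in palmitate was lost in the fits without any 1 of the WT palmitate libraries or RM palmitate replicate 2 or 3 (adjusted p = 0.0788 to 0.165), and that in mock without RM mock replicate 1 (0.0531) or under total counts (0.143).

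Among genes that act on the protease, 1 of 4 metalloprotease inhibitors tested, of 6 listed, was called in the palmitate average, where 20.3% of all features were called. Timp3, the inhibitor bound to matrix, rose by 0.38 ± 0.07 (adjusted p = 0.000742, lost under total counts at 0.186). Timp2 was lower with RM than with WT in dataset B, with log2 fold changes of -0.58 ± 0.11 in palmitate (adjusted p = 0.0101, lost without WT palmitate replicate 1 at 0.0672 or replicate 2 at 0.0507) and -0.54 ± 0.11 in mock (adjusted p = 0.00543, lost under total counts at 0.145). Of 4 proprotein convertases 3 were tested and 1 was called, against the same 20.3% of all features. Furin, which cuts ADAMTS proenzymes, rose by 0.33 ± 0.09 in the palmitate average (adjusted p = 0.00754, lost under total counts at 0.289).

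Osr1, the other odd-skipped gene, was also measured. Per kilobase its group means were 1.04 to 1.89 CPM in dataset A, against 4.59 to 14.6 CPM for Osr2, and 1.84 to 5.14 CPM in dataset B, against 1.89 to 4.84 CPM for Osr2. Not scaled by length, Osr1 had 3.003 ± 0.403 CPM in RM palmitate and 3.80 ± 0.348 CPM in RM mock, and 2.09 ± 0.534 CPM in WT palmitate and 2.56 ± 0.628 CPM in WT mock of dataset A. In dataset B it had 3.70 ± 1.28 CPM in RM palmitate and 7.45 ± 0.417 CPM in RM mock, and 8.23 ± 0.782 CPM in WT palmitate and 10.3 ± 1.34 CPM in WT mock. It fell by 0.49 ± 0.14 in the palmitate average (adjusted p = 0.0114), a call lost with RM palmitate replicate 1 of dataset B alone (adjusted p = 0.063). Osr1 was lower with RM than with WT in palmitate of dataset B (-1.06 ± 0.26, adjusted p = 0.0242), where Osr2 gave 0.37, and that call was lost in 6 of 14 alternatives, each single RM palmitate or WT palmitate library but RM palmitate replicate 1 and WT palmitate replicate 3 among them (adjusted p = 0.0697 to 0.105). Of 12 genes listed around Osr2 in palate and joint development, Osr1 among them, 7 were tested, and Osr1 was the 1 called in the palmitate average, where 20.3% of all features were called. Dkk2, an extracellular Wnt antagonist, was lower with RM than with WT in dataset B (-1.07 ± 0.14 in palmitate, adjusted p = 0.000824, lost with RM palmitate replicate 1 alone at 0.0877, and -0.82 ± 0.13 in mock, adjusted p = 0.00119).

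Genes known to respond to fatty acids were listed as positive controls. The list was made with earlier results of these data known, so it is no independent check of the treatment. Angptl4, a secreted lipase inhibitor induced by fatty acids, was higher with palmitate in all 4 comparisons, with log2 fold changes of 2.59 with RM and 2.25 with WT in dataset A and 2.10 with RM and 2.24 with WT in dataset B (adjusted p of at most 0.000402, edgeR). Of 6 such genes 5 were tested, and 2, Angptl4 and Nr4a1, rose in the palmitate average, where 20.3% of all features were called. The others tested were not called.

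The features whose pattern was most like that of the pair were sought among 7350 features with a mean of at least 5 CPM in both datasets, as Pearson's r of log2 CPM over the 24 libraries of datasets A and B after centring within each dataset. These libraries share the treatment, so r is a description. Most like Osr2 were Runx1t1 (r = 0.90), Cdon (0.88), Pik3ip1 (0.87), Adamts1 (0.86) and Zfp395 (0.86). Most like Adamts1 were Adamts5 (0.87), Osr2 (0.86), Nsd1 (0.86), Pdgfra (0.84) and Cdon (0.83). Osr2 and Adamts1 were each among the 5 features most like the other by this measure, and neither was among them by r over the 8 group means or by Spearman's rho over the 24 libraries. Both had been chosen for their lower level under palmitate. Runx1t1 encodes a transcriptional corepressor, Cdon a cell surface receptor of hedgehog signalling and Pdgfra a growth factor receptor of fibroblasts.

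In the palmitate average these features changed less than the pair. Because the pair was picked for its lower level under palmitate, this order is a description and no result about the other features. Pdgfra, which is also a fibroblast marker, had 298 ± 65.4 CPM in RM palmitate and 563 ± 12.5 CPM in RM mock, and 329 ± 93.9 CPM in WT palmitate and 573 ± 17.3 CPM in WT mock of dataset A. Of the 9 fibroblast markers tested, 0 rose and 2 fell in the palmitate average, Pdgfra (-0.75 ± 0.11) and Dcn (-0.47 ± 0.15), with a median change over the 9 of -0.01, where 20.3% of all features were called. The part of fibroblast number or state in the lower Osr2 and Adamts1 was not tested. Runx1t1 had a palmitate average of -0.74 and Cdon of -0.53, against -1.33 for Osr2 and -1.0 for Adamts1. With r taken over the 8 group means, 1 of the 5 features was kept for each of the pair, and with Spearman's rho over the 24 libraries 3 of 5 were kept.

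**Figure D5:**
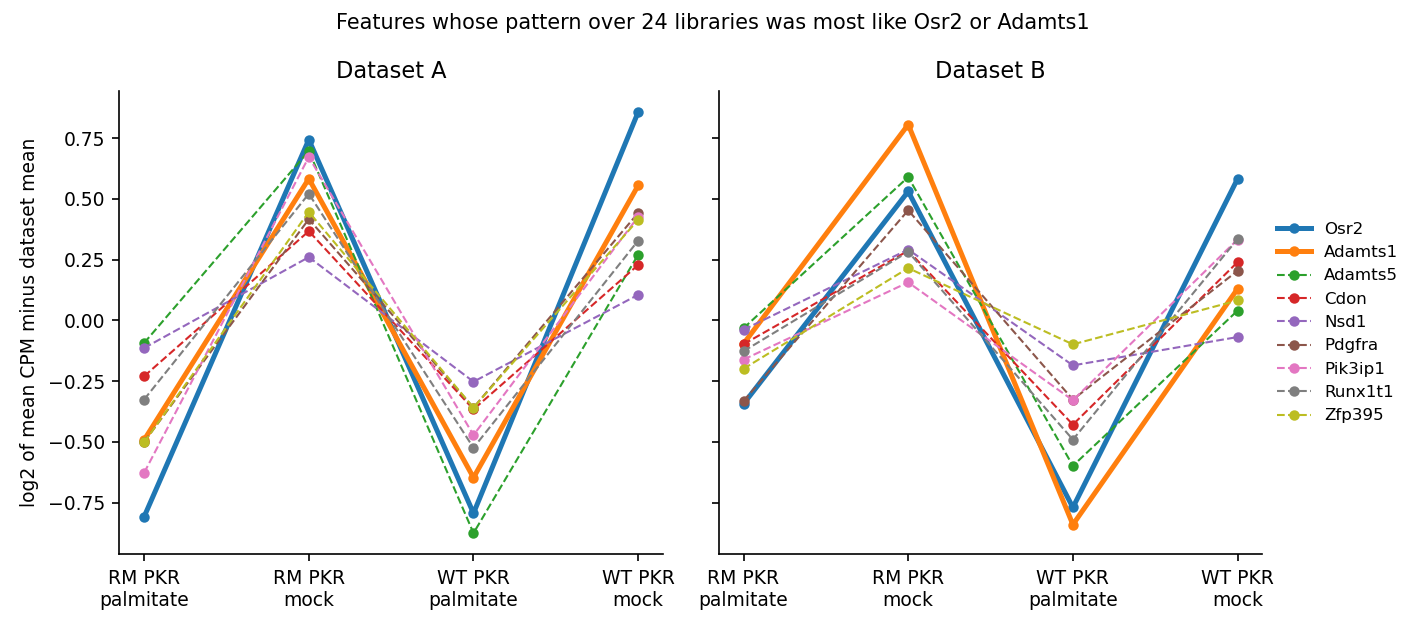
Log2 of the mean CPM of each group minus the gene's mean in its dataset (vertical axis) for Osr2 and Adamts1 (thick lines) and the features with the highest Pearson's r to either over 24 libraries (dashed lines), in the 4 groups of datasets A and B. The lines join groups only to guide the eye, and all genes shown are lower in palmitate than in mock of the same genotype.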

How the data were processed

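RNA immunoprecipitated with PKR was sequenced in 28 libraries. The submitters' processing notes name CASAVA 1.7.0 and 1.8.2, Novoalign and the build mm9. How reads were assigned to features, and whether by strand in datasets A and B, is not stated. The deposited tables hold whole-number counts per feature, on each strand in dataset C, where both were summed. The tables used held 32 columns of counts, and 52 other columns of values per sample were not used. Blank cells, for 11466 features with RM and 14045 with WT in dataset C, were read as 0.

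Osr2, Adamts1 and the gene lists were chosen with earlier results of these data known. Counts were tested with edgeR 4.0.16 (R 4.3.3, limma 3.58.1): TMM scaling, filterByExpr, robust quasi-likelihood F test, two-sided, Benjamini-Hochberg adjustment over 11328 features in dataset A, 12466 in B and 12683 in the fit of both, with 1 mean per group. The threshold was 0.05. The 95% intervals use the t distribution with the degrees of freedom of that fit. The p-values measure the spread between libraries that the submitters call biological replicates. Dataset C was described as CPM by total counts where a feature averaged at least 10 counts, with exact Poisson intervals for levels and binomial intervals for ratios, which cover counting error only. The named genes are the list members past the threshold, at most 4 per list and comparison by smallest p, the 5 features most like each gene and the 2 nearest tested features on each side. Fibroblast, macrophage and lymphocyte, epithelial and endothelial markers were the lists for other cell types. Correlations of same-numbered libraries had a median of 0.009 in dataset A and 0.02 in B, with 4 of 18 pairs over 0.1 in A and 6 of 18 in B. The highest were 0.46 in A and 0.35 in B. No pairing was used in the main fits. Scaling, filter, test, block and left-out libraries were varied, and the scripts were tested on simulated counts. Of 29777 Ensembl identifiers, 25755 were found in GENCODE M21.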

Additional observations from a re-analysis of the deposited data

Results flagged for a closer look

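The difference of Adamts1 between RM and WT was itself compared between the datasets, a comparison added after the genotype differences had been seen. Averaged over both treatments, RM over WT in dataset B minus RM over WT in dataset A was 0.57 ± 0.17 on the log2 scale (95% interval 0.22 to 0.92, adjusted p = 0.0368, edgeR), where 7.88% of all features tested were called. For Osr2 the same difference was 0.16 ± 0.23 (-0.31 to 0.63, adjusted p = 0.781). The call of Adamts1 was lost in 12 of 24 fits that left out 1 library, which ranged over adjusted p of 0.0214 to 0.0846, the highest without WT palmitate replicate 1 of dataset B, and under total counts the difference was 0.081 (adjusted p = 0.834). The libraries whose omission ended the call were replicate 1 of WT mock, WT palmitate, RM mock and RM palmitate and replicate 2 of RM mock in dataset A, and replicate 1 of WT mock, WT palmitate, RM mock and RM palmitate, replicate 2 of WT mock and RM palmitate and replicate 3 of RM mock in dataset B.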

How the results depend on the processing

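Over 501 alternatives of 34 results on Osr2 and Adamts1, 454 were kept and 18 reversed. A tested result was kept if its direction and side of the threshold stayed. A change of palmitate against mock, not tested, was kept if it moved by less than the SD between libraries of a group. A ratio of dataset C was kept if it stayed within its counting interval. Of the 47 not kept, 28 left out 1 library and 8 scaled by total counts, which moves the median of all features by -0.48 to 0.40 on the log2 scale. Under total counts Osr2 had log2 fold changes of 0.10 (RM against WT, mock, dataset A), -1.28 (palmitate against mock with RM, dataset B) and -0.34 (RM against WT, dataset B minus A). Adamts1 had -1.26 (palmitate against mock with RM, dataset B), 0.65 and 0.40 (RM against WT in mock and palmitate of dataset B), -0.25 (palmitate change with RM minus with WT, dataset B) and 0.081 (RM against WT, dataset B minus A). RM against WT for Adamts1 in palmitate of dataset B was 0.76 with only those groups and 0.81 with RM palmitate replicate 1 alone, and the difference between datasets was 0.53 with no low-count filter and 0.63 with that library alone, none of them past the threshold. In dataset C, totals from the headers gave palmitate over mock with RM of 0.533 for Osr2 and 0.929 for Adamts1, and RM over WT in palmitate of 8.65 for Adamts1. There TMM scaling gave RM over WT of 0.703 in palmitate and 0.519 in mock for Osr2, and 1.29 in palmitate and 1.47 in mock for Adamts1. The cause was not tested.

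Leaving out 1 library gave RM over WT for Osr2 of -0.063 to 0.23 in palmitate and -0.19 to 0.018 in mock of dataset A, and -0.23 to 0.030 in mock of dataset B. For Adamts1 it gave -0.027 to 0.20 in mock of dataset A, 0.65 to 0.87 in palmitate of dataset B, -0.056 to 0.18 for the palmitate change with RM minus with WT in dataset B, and 0.50 to 0.63 for the difference between datasets. With the replicate number as a block, RM over WT for Adamts1 in dataset B was 0.76 in palmitate (adjusted p = 0.0126) and 0.69 in mock (adjusted p = 0.00608), and no call on either gene changed. Same-numbered libraries had correlations of -0.36 to 0.46 in dataset A and -0.19 to 0.35 in B. A filter of 10 counts in every library left neither gene in dataset A. It also left out Osr2 in dataset B, where RM palmitate replicate 2 held 7 counts. In datasets A and B 2 to 63 counts of Osr2 stand behind each palmitate level.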
